A study of Mus musculus with 9 samples.

Results

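G2 and mitosis genes encode the proteins that take a cell from the end of DNA replication through chromosome separation. The set examined here has 42 genes, given as a list of symbols and matched to the identifiers of the count files, out of 37310 gene rows in each file. All 42 members were matched and all 42 were among the 16224 genes tested. The lowest member count in any library was 382 reads. The transcripts were measured by RNA sequencing in 9 libraries of mouse embryonic stem (ES) cells, made from cells derived from the E14 line and collected after 72 h. The ethanol control and the group labelled Zbtb11 KO came from a line with Zbtb11 lox/lox alleles and ERt2-Cre, a recombinase activated by 4-hydroxytamoxifen (4OHT), at Rosa26. The control received the ethanol carrier, and the group labelled KO received 250 nM 4OHT. The 4OHT control came from cells with Zbtb11 WT/WT and Rosa26 WT and also received 250 nM 4OHT. Each group had 3 libraries. Whether replicates were separate cultures is not in the labels, and the p-values rest on the scatter among these libraries, part of which may be technical. The labels also do not say how many clones each line represents. Line and drug differ together between the 4OHT control and the ethanol control, so an effect of 4OHT and an effect of the line cannot be told apart in that comparison.

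Entry into mitosis is driven by cyclin-dependent kinase 1 (Cdk1) bound to B-type cyclins. Polo-like and Aurora kinases then build the spindle, kinetochores attach chromosomes to it, and the anaphase-promoting complex, a ubiquitin ligase, marks the cyclins and securin for destruction once every chromosome is attached. Many of these genes share a transcription programme that peaks in G2 and mitosis, through the MuvB complex with B-Myb and FoxM1 when active and with the DREAM repressor when silent. MuvB binds a short promoter element, the cell cycle genes homology region (CHR), and the factor NF-Y binds CCAAT boxes near it. ES cells divide rapidly, and these genes are expressed at high levels in them.

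Gene counts per library ranged from 16909139 to 23544893, and the 42 members took 0.837% to 0.911% of them. Library 3 of the group labelled KO stood apart: its counts differed from those of the other 2 libraries of that group by a chi-square of 15.5 and 16.3 per gene, against 4.75 to 7.21 for every other pair within a group. Zbtb11 itself had a gene-level count that was not lower in the libraries labelled KO (377 ± 8.47 CPM, where the ethanol control had 355 ± 6.70, SD, n = 3). The sources used here do not name the deleted exons, so that count is no check of the label or of the protein. The 10 ES cell markers summed to between 4212 and 5154 CPM in the 9 libraries. Of them, 0 rose and 2 fell against the ethanol control, and 0 rose and 4 fell against the 4OHT control. Between the controls, 3 were higher and 1 lower in the 4OHT control. The summed level of 6 primitive endoderm markers was 10.9 to 17.1 CPM in the ethanol control, 18.9 to 22.2 CPM in the libraries labelled KO and 9.16 to 11.1 CPM in the 4OHT control. Of the 5 tested, 3 rose against the ethanol control and 4 against the 4OHT control. Markers of 2-cell-like cells (5 genes) summed to 6.64 to 9.502 CPM in the ethanol control, 10.8 to 15.2 CPM in the libraries labelled KO and 9.40 to 13.7 CPM in the 4OHT control, and 2 of 4 tested rose against the ethanol control. Of these 4, 0 were called against the 4OHT control, and 1 was higher in the 4OHT control than in the ethanol control. For 6 trophoblast markers the sums were 6.87 to 8.33, 7.90 to 10.9 and 6.68 to 7.73 CPM in the same order, with 1 of 6 tested higher against the ethanol control and 3 against the 4OHT control. For 8 fibroblast markers they were 18.1 to 21.2, 21.1 to 21.8 and 15.7 to 17.2 CPM. Lum and Postn had under 3 counts in every library, and of the 4 fibroblast markers tested 0 were called against the ethanol control, while 2 rose and 1 fell against the 4OHT control. Of 5 mesoderm and primitive streak markers tested, 0 were called in any comparison. Of 4 neuroectoderm markers tested, 0 were called against the ethanol control, and 0 rose and 2 fell against the 4OHT control. Between the controls, 1 of these was higher in the 4OHT control. Over all genes tested, 13.0% rose and 14.2% fell against the ethanol control, and 19.1% and 19.8% against the 4OHT control. Between the controls, 9.66% were higher and 8.75% lower. The part of these markers in the results below was not tested.

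The comparison of the libraries labelled KO with the ethanol control asks which transcripts differ after 4OHT was given to the floxed line. With TMM scaling, the 42 genes as a set stayed near the ethanol control level. Their summed level in CPM, counts scaled to library size with TMM factors, was 8489 to 8636 in the ethanol control. It was 8511 to 8936 CPM in the libraries labelled KO, so the ranges overlapped. As a share of gene counts, without TMM factors, they took 0.837% to 0.855% in the ethanol control. In the libraries labelled KO they took 0.876% to 0.911%, so these ranges did not overlap. Of the 42 members, 6 rose and 2 fell at an adjusted p under 0.05 in edgeR's quasi-likelihood test, and 34 did not pass. Among all genes tested, 13.0% rose and 14.2% fell. The members' median log2 fold change was 0.03, beside 0.01 over all genes tested. For 38 of the 42 members the 95% interval of the fold change lay between 25% higher and the same fold lower, and the exceptions were Cdc25c, Cenpa, Ube2c and Ckap2. Over all genes tested, which include many with far lower counts, that share was 30.2%. With the replicate number as a block, 12 members rose and 6 fell, where 20.4% and 22.3% of all genes did. Without library 3 of the group labelled KO, 3 rose and 2 fell and the median was 0.00. That fit had fewer degrees of freedom and its shares over all genes are not given. Its counts therefore cannot be read as a result about the members. In bulk RNA, a difference in the share of cells in G2 and mitosis and a difference in these transcripts per cell cannot be told apart.

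In the comparison with the 4OHT control both groups received the drug, and the labelled Zbtb11 KO and the line differ together, so they cannot be told apart. Here 8 members rose and 12 fell in the libraries labelled KO, and 19.1% and 19.8% of all genes tested did. The median over members was -0.02, beside 0.02 over all genes. The interval lay within the same bounds for 32 of 42 members, against 26.3% of all genes. With the replicate block, 12 rose and 15 fell, and 25.5% and 25.9% of all genes did. The 4OHT control had the highest summed member level, 8881 to 9094 CPM. Against the ethanol control, 7 members were higher and 2 lower in the 4OHT control, where 9.66% and 8.75% of all genes were, and the members' median was 0.07 beside 0.00 over all genes. With the replicate block, 14 were higher and 5 lower, and the shares of all genes were 17.0% and 15.8%. The 3 comparisons share libraries, so their values for a gene are not independent. Scaling by library totals alone moved the median of all genes by 0.07 and 0.08 in the comparisons of the group labelled KO with the ethanol and 4OHT controls. Under it, 13 members rose and 0 fell against the ethanol control, and 13 rose and 5 fell against the 4OHT control, while the split of all genes became 18.7% higher and 9.41% lower, and 26.0% higher and 14.3% lower.

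**Figure D1:**
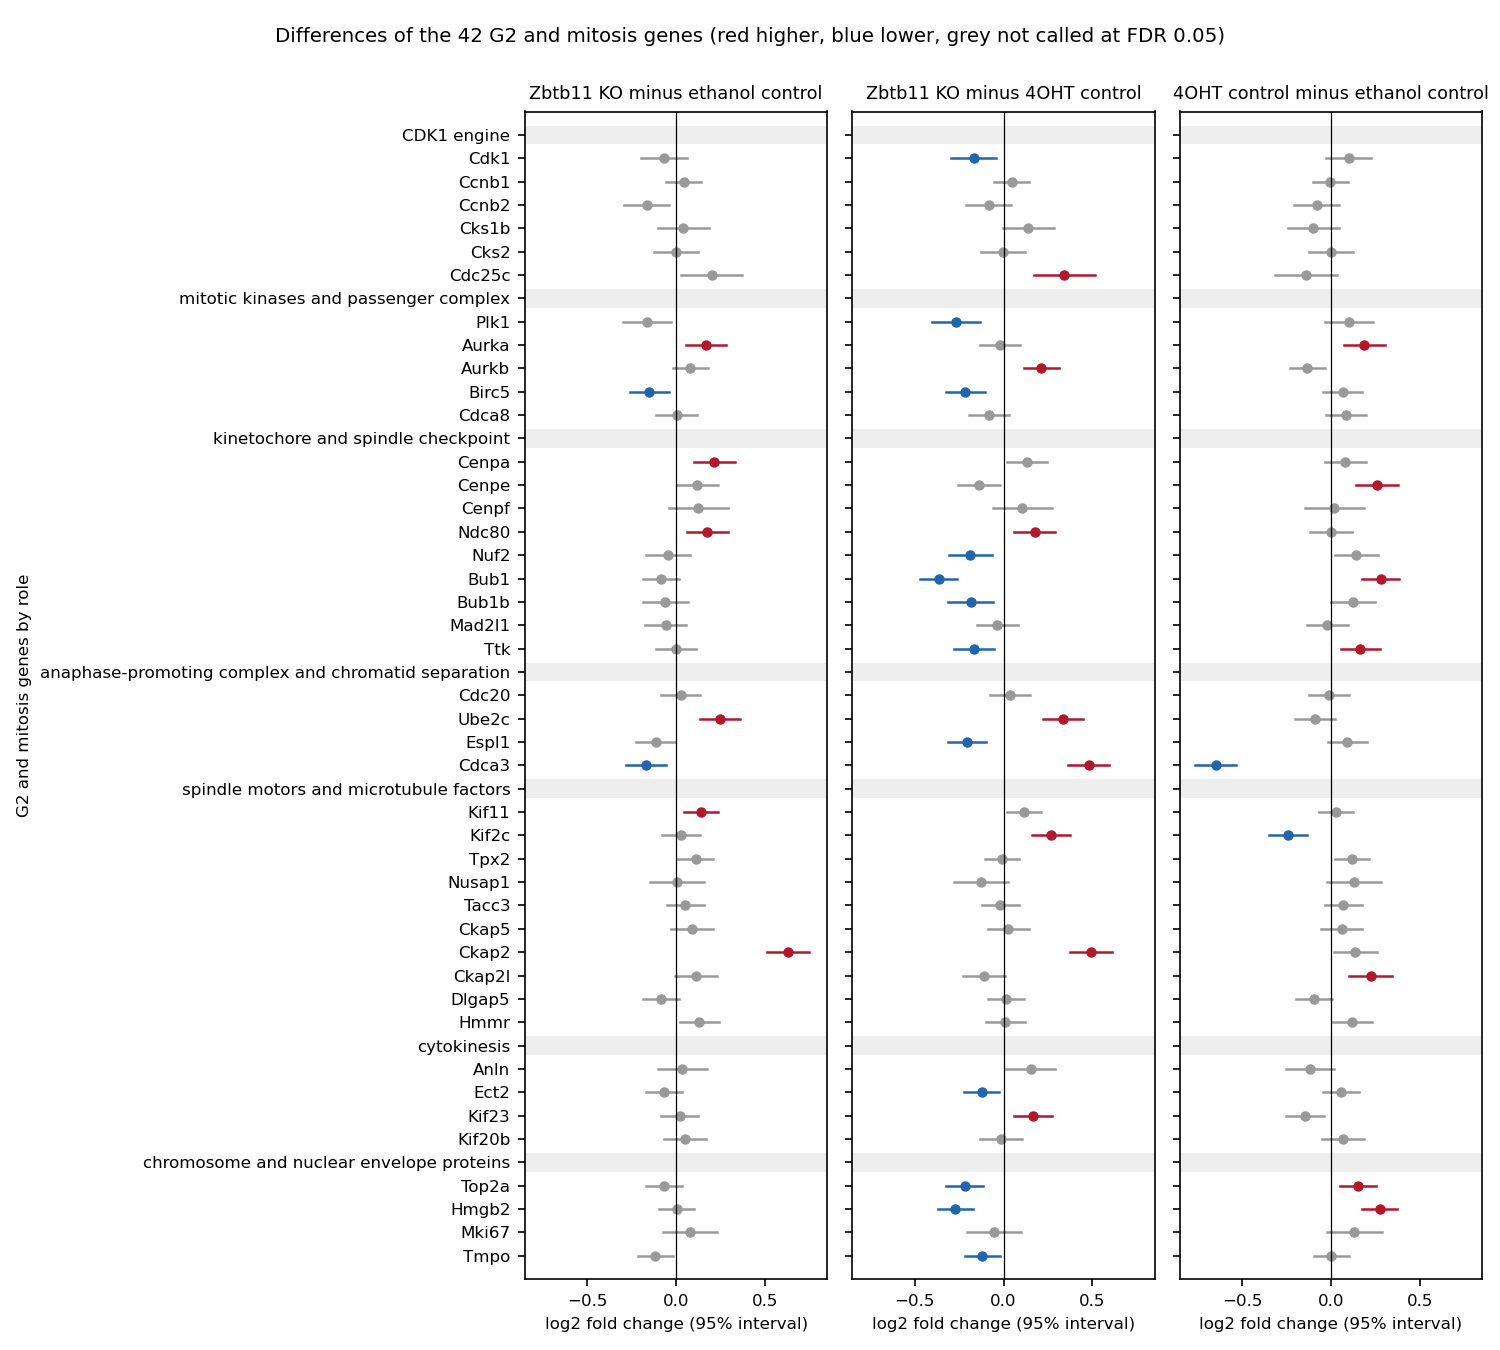
Log2 fold change of each of the 42 members with its 95% interval, grouped by role, in the 3 comparisons. Red points were called higher, blue points lower and grey points not called. Against the ethanol control most intervals lie close to 0, and Ckap2, at 0.63, lies farthest from it.

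In the engine of mitotic entry, none of the 6 members passed against the ethanol control, where 13.0% of all genes rose and 14.2% fell. Cdk1, the kinase itself, had 153, 154 and 153 CPM in the ethanol control libraries, 144, 156 and 138 in the libraries labelled KO and 159, 178 and 156 in the 4OHT control. Levels in the group labelled KO overlapped both controls, and its library 2 was the highest of the 3. The log2 fold change was -0.07, 95% interval -0.20 to 0.06, against the ethanol control. Against the 4OHT control Cdk1 fell (-0.17, SE 0.06, adjusted p = 0.037). That call ended without library 1 or 3 of the group labelled KO or library 2 of the 4OHT control (log2 fold change -0.16 to -0.11, adjusted p 0.094 to 0.18), with library totals (-0.08, adjusted p = 0.28) and in the fit of the 2 groups alone (-0.17, adjusted p = 0.059). Ccnb1, which encodes cyclin B1, had 315, 333 and 332 CPM in the ethanol control libraries, 326, 342 and 342 in the libraries labelled KO and 328, 323 and 326 in the 4OHT control. Its level was similar in all 3 groups, with a log2 fold change of 0.04, 95% interval -0.06 to 0.14, against the ethanol control. Near-identical processed pseudogenes of Ccnb1 exist, and how reads were divided between them is not stated.

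Cdc25c encodes a phosphatase that removes the inhibitory phosphates from Cdk1, and it had the lowest level per length of the whole set, 5.45 CPM per kilobase of exon in the ethanol control. Its libraries had 27.7, 26.4 and 26.3 CPM in the ethanol control libraries, 33.4, 28.1 and 30.9 in the libraries labelled KO and 26.2, 22.4 and 24.2 in the 4OHT control. Every library labelled KO exceeded both controls. Cdc25c rose against the 4OHT control (0.34, SE 0.08, adjusted p = 0.0036). The comparison with the ethanol control gave 0.20, adjusted p = 0.076, and it passed with the block (0.20, adjusted p = 0.010). It shares 12.7% of its exon bases with Gm3550 on the opposite strand, and Gm3550 had at most 0.624 CPM in any library. Ccnb2, the other B-type cyclin, gave -0.16, adjusted p = 0.052, against the ethanol control, and passed as lower with the block (-0.16, adjusted p = 0.0018). Cks1b and Cks2 encode small subunits that bind Cdk1. Cks2 had the highest level per length of the group in the ethanol control (82.2 CPM per kilobase), with 58.9, 55.9 and 55.8 CPM in the ethanol control libraries, 56.5, 56.8 and 57.5 in the libraries labelled KO and 59.3, 58.4 and 53.3 in the 4OHT control, and near-identical pseudogenes make that level uncertain. Cks1b passed only with the block, with library totals and without library 3 of the group labelled KO, against the 4OHT control (0.14, adjusted p = 0.017, with the block).

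The mitotic kinases did not move in one direction. Aurka, the Aurora kinase of centrosomes and spindle poles, had 124, 125 and 137 CPM in the ethanol control libraries, 141, 149 and 143 in the libraries labelled KO and 143, 150.1 and 146 in the 4OHT control. Every library labelled KO lay above every ethanol control library and overlapped the 4OHT control. Aurka rose against the ethanol control (0.17, SE 0.05, adjusted p = 0.030) and had -0.02, 95% interval -0.13 to 0.09, against the 4OHT control. It was also higher in the 4OHT control than in the ethanol control (0.19, adjusted p = 0.023). The call against the ethanol control ended without library 1 or 2 of the ethanol control or any 1 library of the group labelled KO (log2 fold change 0.13 to 0.18, adjusted p 0.057 to 0.13). DESeq2 (0.16, adjusted p = 0.052) and the fit with no filter on low counts (0.16, adjusted p = 0.058) ended it too. With the block it held (0.17, adjusted p = 0.0011). Between the controls it ended without library 1 or 2 of the ethanol control or library 2 or 3 of the 4OHT control (log2 fold change 0.16 to 0.19, adjusted p 0.063 to 0.11).

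Aurkb is the catalytic subunit of the chromosomal passenger complex, which corrects faulty attachments, and Birc5 (survivin) and Cdca8 (borealin) are 2 of its other subunits. Birc5 had 139, 139 and 135 CPM in the ethanol control libraries, 121, 131 and 121 in the libraries labelled KO and 142, 149 and 141 in the 4OHT control. All 3 libraries labelled KO lay below all 6 control libraries. Birc5 fell against the ethanol control (-0.15, SE 0.05, adjusted p = 0.040) and against the 4OHT control (-0.22, SE 0.05, adjusted p = 0.0037). The first call ended without any 1 ethanol control library or library 1 or 3 of the group labelled KO (log2 fold change -0.17 to -0.14, adjusted p 0.058 to 0.11), and with library totals (-0.08, adjusted p = 0.25). It also ended in the fit of the 2 groups alone (-0.15, adjusted p = 0.053) and with no filter on low counts (-0.16, adjusted p = 0.075). With the block it held (-0.15, adjusted p = 0.0018). The second held under every alternative run. Aurkb had 104, 103 and 103 CPM in the ethanol control libraries, 108, 111 and 109 in the libraries labelled KO and 95.1, 95.6 and 92.5 in the 4OHT control. Of the 3 groups, the one labelled KO was highest. Aurkb rose against the 4OHT control (0.21, SE 0.05, adjusted p = 0.0022) and had 0.08, adjusted p = 0.22, against the ethanol control. Cdca8 had 106, 115 and 118 CPM in the ethanol control libraries, 109.6, 116 and 114 in the libraries labelled KO and 117, 119 and 123 in the 4OHT control. Its levels in the libraries labelled KO overlapped the ethanol control and lay just below the 4OHT control. Cdca8 had the lowest level per length of the group, 21.8 CPM per kilobase in the ethanol control.

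Plk1, the polo-like kinase that promotes mitotic entry, centrosome maturation and cytokinesis, had 159, 178 and 193 CPM in the ethanol control libraries, 154, 162 and 157 in the libraries labelled KO and 182, 191 and 196 in the 4OHT control. The ethanol control libraries were spread widely, and the lowest of them lay within the range of the libraries labelled KO. The 4OHT control libraries all lay above the libraries labelled KO, and Plk1 fell in that comparison (-0.27, SE 0.06, adjusted p = 0.0038). Against the ethanol control it had -0.16, adjusted p = 0.069, and it passed with the block (-0.16, adjusted p = 0.0023). Plk1 had the highest level per length of the group (80.3 CPM per kilobase in the ethanol control).

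**Figure D2:**
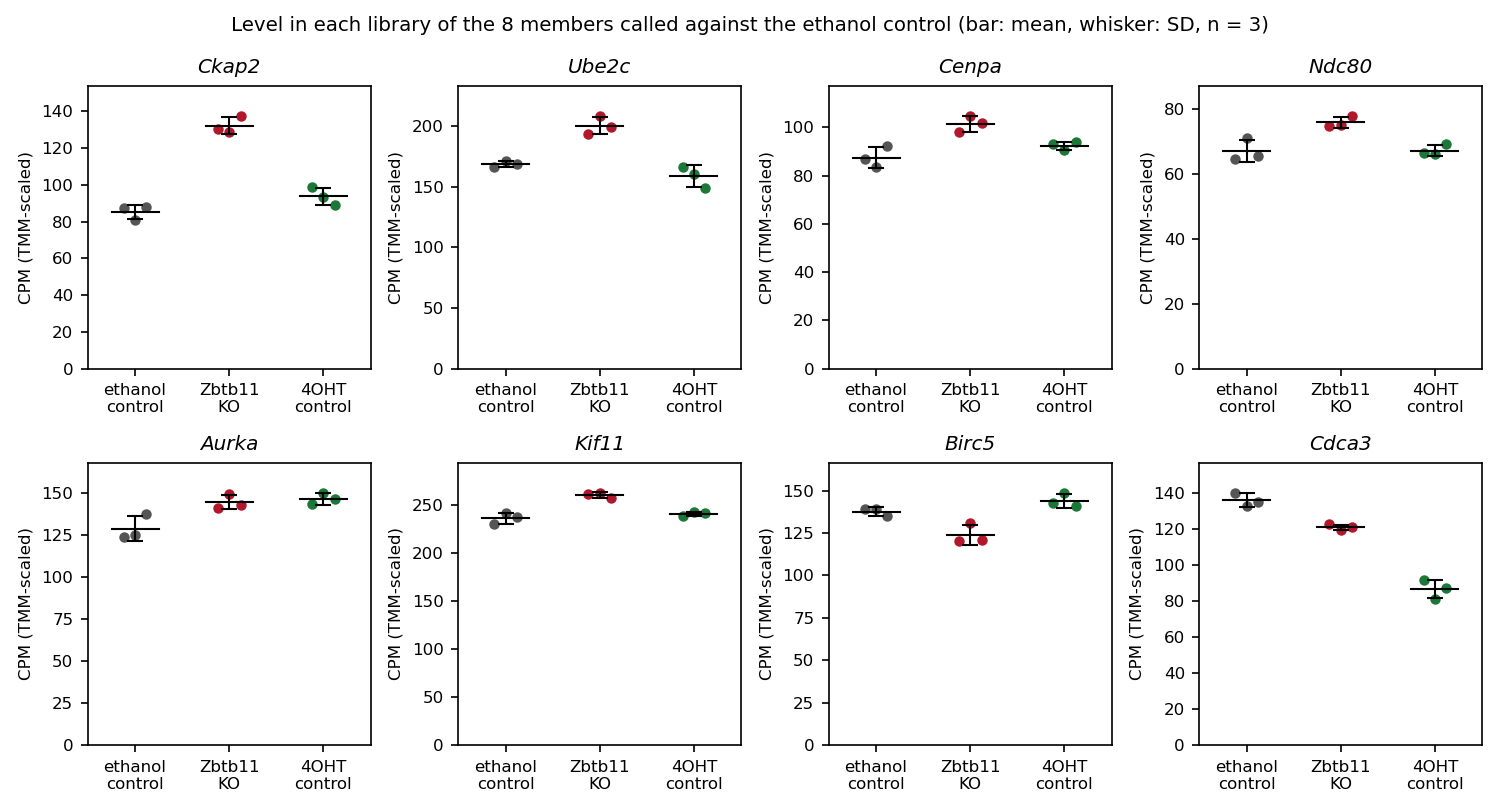
Level in CPM after TMM scaling of the 8 members called against the ethanol control, in each of the 9 libraries, on axes that start at 0. Points are libraries, the bar is the mean and the whisker the SD (n = 3). For Ckap2 the libraries labelled KO, at 128 to 137 CPM, stand clear of both controls, and for Cdca3 the 4OHT control, at 81.1 to 91.4 CPM, lies lowest.

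Among the 9 kinetochore and checkpoint genes, 2 rose and 0 fell against the ethanol control, where 13.0% and 14.2% of all genes did. The 2 were Cenpa and Ndc80. Cenpa, the histone variant that marks the centromere, had 86.7, 83.4 and 92.3 CPM in the ethanol control libraries, 97.9, 105 and 102 in the libraries labelled KO and 93.1, 90.6 and 93.8 in the 4OHT control. All libraries labelled KO lay above all control libraries. Cenpa rose against the ethanol control (0.22, SE 0.05, adjusted p = 0.0074), a call that ended without library 2 of the ethanol control (0.18, adjusted p = 0.055). Against the 4OHT control it had 0.13, adjusted p = 0.059, and it passed with the block (0.13, adjusted p = 0.0086). Ndc80, the microtubule-binding subunit of the outer kinetochore, had 64.8, 71.1 and 65.7 CPM in the ethanol control libraries, 74.9, 75.2 and 77.9 in the libraries labelled KO and 66.5, 66.1 and 69.3 in the 4OHT control. The libraries labelled KO were again above all 6 control libraries. Ndc80 rose against the ethanol control (0.18, SE 0.05, adjusted p = 0.025) and against the 4OHT control (0.17, SE 0.05, adjusted p = 0.019). The first call ended without library 1 or 3 of the ethanol control or any 1 library labelled KO (log2 fold change 0.15 to 0.18, adjusted p 0.059 to 0.11), with DESeq2 (0.16, adjusted p = 0.059) and with no filter on low counts (0.17, adjusted p = 0.061). The second ended without library 3 of the group labelled KO or library 1 or 2 of the 4OHT control (log2 fold change 0.15 to 0.16, adjusted p 0.058 to 0.069). With the block the first (0.18, adjusted p = 0.0018) and the second (0.17, adjusted p = 0.0015) held. Ndc80 shares stretches of at least 200 bases at 95% identity or more with 2 non-coding genes, so its count is uncertain to that extent.

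Nuf2, the direct partner of Ndc80 in the same complex, was not called against the ethanol control. Its libraries had 47.4, 48.9 and 49.8 CPM in the ethanol control libraries, 46.1, 48.8 and 46.6 in the libraries labelled KO and 52.0, 55.6 and 53.5 in the 4OHT control. The ethanol control and the libraries labelled KO overlapped, and the 4OHT control lay above both. Nuf2 fell against the 4OHT control (-0.19, SE 0.06, adjusted p = 0.017), a call that ended without library 1 of the group labelled KO or library 2 of the 4OHT control (log2 fold change -0.17 to -0.16, adjusted p 0.061 to 0.064) and with library totals (-0.10, adjusted p = 0.16). Nuf2 had the lowest level per length of the group (7.68 CPM per kilobase in the ethanol control). The difference between the Ndc80 and Nuf2 fold changes was not tested.

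The checkpoint kinases differed mainly in the 4OHT control. Bub1, a kinase that recruits checkpoint proteins to kinetochores, had 189, 179.9 and 186 CPM in the ethanol control libraries, 177, 171 and 175 in the libraries labelled KO and 225, 217 and 231 in the 4OHT control. The 4OHT control libraries lay above all 6 others, while the libraries labelled KO lay slightly below the ethanol control. Bub1 fell against the 4OHT control (-0.37, SE 0.05, adjusted p = 2.2e-05) and was higher in the 4OHT control than in the ethanol control (0.28, SE 0.05, adjusted p = 0.00070). It had -0.09, 95% interval -0.19 to 0.02, between the group labelled KO and the ethanol control, and the calls involving the 4OHT control held under every alternative run. Ttk (Mps1), the kinase at the top of the checkpoint, had 86.8, 93.6 and 89.3 CPM in the ethanol control libraries, 89.9, 88.7 and 91.1 in the libraries labelled KO and 96.8, 102 and 104 in the 4OHT control. The libraries labelled KO lay within the range of the ethanol control, and the 4OHT control lay above both. Ttk fell against the 4OHT control (-0.17, SE 0.05, adjusted p = 0.019), a call that ended without library 3 of the 4OHT control (-0.14, adjusted p = 0.081) and with library totals (-0.08, adjusted p = 0.205). Ttk was higher in the 4OHT control than in the ethanol control (0.17, adjusted p = 0.037), a call that ended in the fit of the 2 groups alone and without library 1 or 3 of the ethanol control, library 1 of the group labelled KO or library 2 or 3 of the 4OHT control (log2 fold change 0.14 to 0.16, adjusted p 0.057 to 0.15). It ended as well with no filter on low counts (0.16, adjusted p = 0.084).

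Bub1b, which encodes the inhibitor BubR1 and had the highest level per length of the group (61.7 CPM per kilobase in the ethanol control), had 249.7, 269.6 and 272 CPM in the ethanol control libraries, 232, 259 and 268 in the libraries labelled KO and 276, 294 and 293 in the 4OHT control. The ethanol control overlapped the libraries labelled KO, and the 4OHT control lay above both. Bub1b fell against the 4OHT control (-0.19, SE 0.06, adjusted p = 0.020). That call ended without library 1 of the group labelled KO or library 2 or 3 of the 4OHT control (log2 fold change -0.17 to -0.13, adjusted p 0.066 to 0.11) and with library totals (-0.10, adjusted p = 0.13). Cenpe, a kinetochore motor that moves chromosomes to the spindle equator, was higher in the 4OHT control than in the ethanol control (0.26, SE 0.06, adjusted p = 0.0040). With the block it passed as higher in the libraries labelled KO than in the ethanol control (0.12, adjusted p = 0.019) and as lower than in the 4OHT control (-0.14, adjusted p = 0.0047). Cenpf, a large protein of the outer kinetochore, passed only with the block, against the ethanol control (0.12, adjusted p = 0.041).

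Genes of chromatid separation held changes in both directions. Ube2c, the ubiquitin-conjugating enzyme that works with the anaphase-promoting complex, had 166, 171 and 169 CPM in the ethanol control libraries, 194, 208 and 199.8 in the libraries labelled KO and 167, 161 and 149 in the 4OHT control. All libraries labelled KO lay above all control libraries, and the controls overlapped. Ube2c rose against the ethanol control (0.25, SE 0.05, adjusted p = 0.0027) and the 4OHT control (0.34, SE 0.05, adjusted p = 0.00013), and both calls held under all 16 alternatives run. Ube2c shares 22.8% of its exon bases with Tnnc2 on the opposite strand, and Tnnc2 had at most 0.410 CPM in any library. Cdc20, the activator of the anaphase-promoting complex that the checkpoint restrains, had 225, 222 and 229 CPM in the ethanol control libraries, 222, 245 and 220.4 in the libraries labelled KO and 227, 227 and 217 in the 4OHT control. All groups overlapped, and it had the highest level per length of the group (121 CPM per kilobase in the ethanol control). The log2 fold change of Cdc20 was 0.02, 95% interval -0.09 to 0.14, against the ethanol control. Espl1, which encodes separase, the protease that opens cohesin, had the lowest level per length (27.1 CPM per kilobase). Its libraries had 237, 234 and 241 CPM in the ethanol control libraries, 224, 213 and 221 in the libraries labelled KO and 269, 246 and 244 in the 4OHT control. Both controls lay above the libraries labelled KO. Espl1 fell against the 4OHT control (-0.21, SE 0.05, adjusted p = 0.0047) but not with library totals (-0.12, adjusted p = 0.075). Relative to the ethanol control it had -0.11, adjusted p = 0.11, and passed with the block (-0.11, adjusted p = 0.012).

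Cdca3, which encodes an F-box-like protein that promotes destruction of the Cdk1 inhibitor Wee1, had 140.0, 133 and 135 CPM in the ethanol control libraries, 122, 119 and 121 in the libraries labelled KO and 91.4, 81.1 and 87.3 in the 4OHT control. The 3 groups did not overlap, with the ethanol control highest and the 4OHT control lowest. Cdca3 fell against the ethanol control (-0.17, SE 0.05, adjusted p = 0.027) and rose against the 4OHT control (0.48, SE 0.05, adjusted p = 4.5e-06). The first call ended without library 1 or 3 of the ethanol control (log2 fold change -0.18 to -0.15, adjusted p 0.056 to 0.086) and with library totals (-0.10, adjusted p = 0.204). With the block it held (-0.17, adjusted p = 0.00076). The difference between the controls was the largest of any member (-0.65, SE 0.05, adjusted p = 7.6e-07). Genes beside Cdca3 on chromosome 6 differed between the controls as well. Of the 100 tested genes nearest to it in gene order, 64 were called lower in the 4OHT control and 0 higher, with a median log2 fold change of -0.57. The same 100 genes had a median of 0.52 in the libraries labelled KO against the 4OHT control and of 0.00 against the ethanol control. The neighbours were examined after the values of Cdca3 were seen, and the part of the chromosomal region in the Cdca3 result was not tested.

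Ckap2 showed the largest change of the set. It encodes a microtubule-associated protein of the spindle poles that stabilises microtubules. Its libraries had 87.3, 81.0 and 87.8 CPM in the ethanol control libraries, 130.4, 129 and 137 in the libraries labelled KO and 98.5, 93.5 and 89.2 in the 4OHT control. The libraries labelled KO lay far above both controls, and the lowest of them was above the highest control library. Ckap2 rose against the ethanol control (0.63, SE 0.06, adjusted p = 5.9e-07) and against the 4OHT control (0.49, SE 0.06, adjusted p = 4.7e-06), and both calls held under every alternative run. The corresponding folds were 1.55 and 1.41. Its 100 nearest tested genes, on chromosome 8, had a median log2 fold change of 0.06 against the ethanol control. They had a median of -0.18 against the 4OHT control, with 8 called higher and 45 lower, so Ckap2 moved against its neighbours there. Ckap2 shares no exon bases with another annotated gene. Its level per length rose from 26.5 to 41.1 CPM per kilobase, which took it from the third lowest of the 10 spindle genes to the third highest.

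Kif11, the kinesin (Eg5) that pushes spindle poles apart, had 230.1, 241 and 237 CPM in the ethanol control libraries, 262, 263 and 257 in the libraries labelled KO and 238, 242 and 241 in the 4OHT control. All control libraries lay below those labelled KO. Kif11 rose against the ethanol control (0.14, SE 0.05, adjusted p = 0.028), and that call ended without any 1 of the 6 libraries compared (log2 fold change 0.12 to 0.15, adjusted p 0.051 to 0.12). It also ended in the fit of the 2 groups alone (0.14, adjusted p = 0.057) and with no filter on low counts (0.14, adjusted p = 0.11). With the block it held (0.14, adjusted p = 0.0011). Against the 4OHT control it had 0.11, adjusted p = 0.054, and it passed with the block (0.11, adjusted p = 0.0057). Kif2c, a kinesin that takes microtubules apart at centromeres, had 134, 139.7 and 137 CPM in the ethanol control libraries, 139, 138 and 141 in the libraries labelled KO and 119, 118 and 109 in the 4OHT control. The 4OHT control lay below both other groups, which overlapped. Kif2c rose against the 4OHT control (0.27, SE 0.05, adjusted p = 0.00063) and was lower in the 4OHT control than in the ethanol control (-0.24, SE 0.05, adjusted p = 0.0034).

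The other 7 spindle genes did not pass in either comparison of the libraries labelled KO. With the block, Tpx2, the activator of Aurora A (0.11, adjusted p = 0.010), Hmmr, a spindle assembly factor (0.13, adjusted p = 0.0029) and Ckap2l, a relative of Ckap2 (0.11, adjusted p = 0.040), passed as higher against the ethanol control. In the same fit Tpx2 (0.12, adjusted p = 0.0077) and Hmmr (0.12, adjusted p = 0.0074) were also higher in the 4OHT control than in the ethanol control. The libraries labelled KO had -0.01 for Tpx2 and 0.01 for Hmmr against the 4OHT control. Ckap2l was higher in the 4OHT control than in the ethanol control (0.22, SE 0.06, adjusted p = 0.011), a call that ended without library 2 of the ethanol control (0.21, adjusted p = 0.057). Against the 4OHT control, Ckap2l (-0.11, adjusted p = 0.029) and Nusap1, a microtubule bundler (-0.13, adjusted p = 0.011), passed as lower with the block. In that fit Nusap1 had 0.00048 against the ethanol control and was higher in the 4OHT control than in the ethanol control (0.13, adjusted p = 0.018). Tpx2 had the highest level per length of the spindle genes in the ethanol control, 52.2 CPM per kilobase, with 235, 249 and 248 CPM in the ethanol control libraries, 260.3, 259.6 and 270.0 in the libraries labelled KO and 264, 264 and 267 in the 4OHT control. Ckap2l had the lowest, 21.3 CPM per kilobase, with 66.2, 65.6 and 68.3 CPM in the ethanol control libraries, 71.7, 67.9 and 76.5 in the libraries labelled KO and 79.3, 75.9 and 78.1 in the 4OHT control. Summed over the 10 spindle genes, the level was 1711 to 1775 CPM in the ethanol control, 1834 to 1967 CPM in the libraries labelled KO and 1797 to 1836 CPM in the 4OHT control. This was the only one of the 7 role groups whose libraries labelled KO all lay above all ethanol control libraries.

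Per length, the cytokinesis genes ran from 15.2 CPM per kilobase for Kif23 to 50.1 for Ect2 in the ethanol control. None of the 4 passed against the ethanol control, where 13.0% of all genes rose and 14.2% fell. Their log2 fold changes ran from -0.07 to 0.05. Kif23, the motor of the centralspindlin complex at the midzone, had 116, 122 and 122 CPM in the ethanol control libraries, 119.8, 119 and 125 in the libraries labelled KO and 111, 105 and 109 in the 4OHT control. The 4OHT control lay below the other groups, and Kif23 rose in the libraries labelled KO against it (0.16, SE 0.05, adjusted p = 0.017). The call ended without library 3 of the group labelled KO or library 2 of the 4OHT control (log2 fold change 0.14, adjusted p 0.069 to 0.077) and with no filter on low counts (0.16, adjusted p = 0.056). Ect2, the exchange factor that activates RhoA for the contractile ring, had 265, 265 and 278 CPM in the ethanol control libraries, 248, 261 and 262 in the libraries labelled KO and 278, 277 and 285 in the 4OHT control. The libraries labelled KO lay below every library of the other groups, and Ect2 fell against the 4OHT control (-0.12, SE 0.05, adjusted p = 0.0497). This call lay at the threshold and ended without any 1 library except library 2 of the group labelled KO (log2 fold change -0.14 to -0.10, adjusted p 0.055 to 0.17), and with library totals (-0.04, adjusted p = 0.50). The fit of the 2 groups alone and both other filters on low counts ended it too. With the block it held (-0.12, adjusted p = 0.0030). Anln, the scaffold anillin, passed as higher against the 4OHT control only with the block, with library totals and without library 1 of the 4OHT control (0.15, adjusted p = 0.0016, with the block).

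Of the 4 chromosome and nuclear envelope genes, 0 passed against the ethanol control, where 13.0% of all genes rose and 14.2% fell. Against the 4OHT control 0 rose and 3 fell, where 19.1% and 19.8% of all genes did. Top2a, the topoisomerase that untangles sister chromatids, had the highest level per length of all 42 members, 165 CPM per kilobase in the ethanol control. Its libraries had 1462, 1502 and 1491 CPM in the ethanol control libraries, 1409, 1329.6 and 1513 in the libraries labelled KO and 1671, 1619 and 1661 in the 4OHT control. Those labelled KO spanned the ethanol control, and the 4OHT control lay above both. Top2a fell against the 4OHT control (-0.22, SE 0.05, adjusted p = 0.0021), a call that held under every alternative run, and had -0.07, 95% interval -0.17 to 0.04, against the ethanol control. Top2a was higher in the 4OHT control than in the ethanol control (0.15, SE 0.05, adjusted p = 0.039). This call ended without any 1 control library or without library 1 of the group labelled KO (log2 fold change 0.14 to 0.16, adjusted p 0.057 to 0.13).

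Hmgb2, a chromatin protein that bends DNA, had 277, 276 and 294 CPM in the ethanol control libraries, 284, 283 and 282 in the libraries labelled KO and 336, 344 and 344 in the 4OHT control. The 4OHT control lay above the other groups, which overlapped. Hmgb2 fell against the 4OHT control (-0.27, SE 0.05, adjusted p = 0.00023) and was higher in the 4OHT control than in the ethanol control (0.27, SE 0.05, adjusted p = 0.00055). The 100 tested genes nearest to Hmgb2, also on chromosome 8, had medians of -0.27 and 0.26 in those comparisons, close to its own values. Between the controls, 43 of them were called higher and 0 lower. The part of the region in the Hmgb2 result was not tested, and pseudogenes nearly identical to Hmgb2 add uncertainty to its count. Tmpo, the nuclear envelope protein thymopoietin, had the lowest level per length of the group (23.8 CPM per kilobase in the ethanol control), with 256, 263 and 268 CPM in the ethanol control libraries, 237, 248 and 239 in the libraries labelled KO and 266, 260.5 and 261 in the 4OHT control. All libraries labelled KO lay below all control libraries. Tmpo fell against the 4OHT control (-0.12, SE 0.05, adjusted p = 0.049), a call at the threshold that ended without any 1 library except library 2 of the group labelled KO (log2 fold change -0.13 to -0.11, adjusted p 0.058 to 0.14) and with library totals (-0.04, adjusted p = 0.54). Like that of Ect2, it also ended in the fit of the 2 groups alone and with both other filters. With the ethanol control as reference it had -0.12, adjusted p = 0.069, and it passed with the block (-0.12, adjusted p = 0.0073). Mki67, the proliferation antigen that coats mitotic chromosomes, had 371, 361 and 329.5 CPM in the ethanol control libraries, 377, 334 and 409 in the libraries labelled KO and 384, 367 and 414 in the 4OHT control. All groups overlapped, and its log2 fold change was 0.08, 95% interval -0.08 to 0.23, against the ethanol control.

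**Figure D3:**
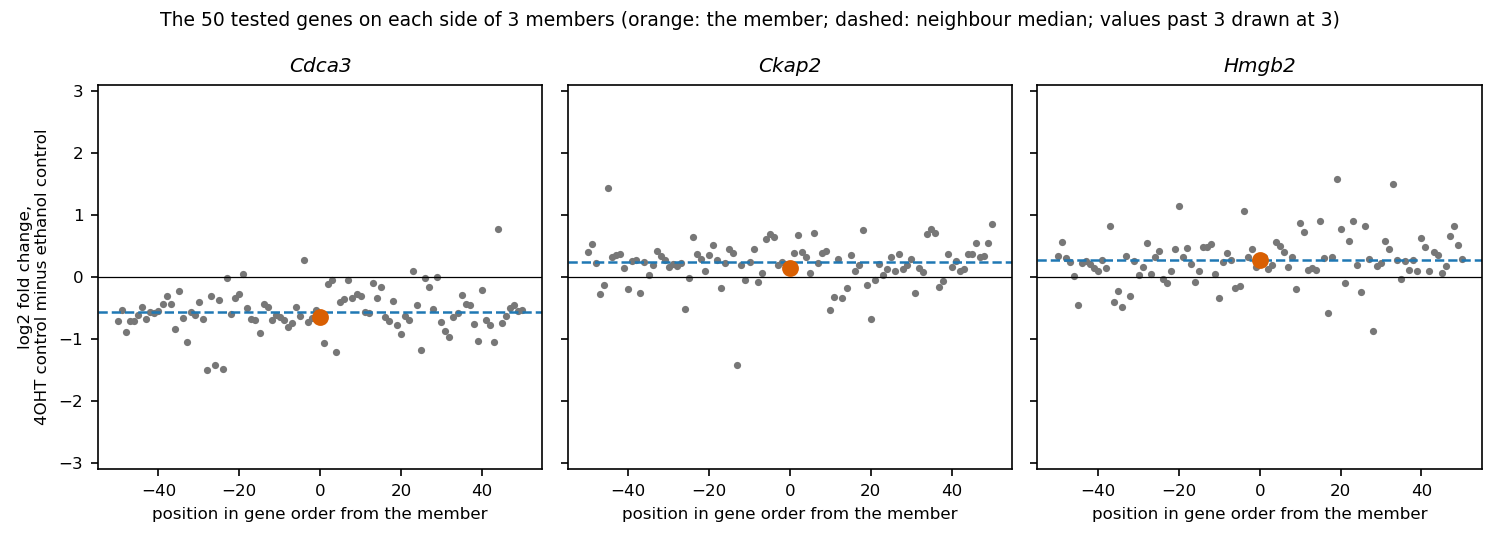
Log2 fold change, 4OHT control minus ethanol control, of the 50 tested genes on each side of Cdca3, Ckap2 and Hmgb2 in gene order. The orange point is the member and the dashed line the median of its 100 neighbours, which is -0.57 for Cdca3, 0.24 for Ckap2 and 0.26 for Hmgb2.

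Regional differences of this kind touched 3 members, counted as a neighbour median between the controls more than 0.1 from zero. For the other 39 members, the median of the 100 nearest tested genes between the controls lay between -0.05 and 0.08. Over whole chromosomes, the median was 0.25 for chromosome 8 (790 genes) and -0.16 for chromosome 6 (717 genes), and between -0.02 and 0.03 for the other 18 chromosomes. Against the ethanol control, where line is shared, the medians around the 42 members lay between -0.07 and 0.12. The highest was that of the 100 genes nearest to Ube2c on chromosome 2, with 20 called higher and 12 lower. Between the controls these genes had a median of 0.08, with 23 called higher and 6 lower. The part of that region in the Ube2c result was not tested.

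Promoter sequence was examined because the set is defined by a shared cell cycle programme while its members differed in response. RefSeq promoters (GRCm38.p6, a later build than the mm9 of the count files) cover 250 bases before to 50 bases after the first transcribed base, numbered +1. Entries were found for 38 members, and none for Cdc25c, Aurkb, Tpx2 and Dlgap5. A CHR was counted as TTTGAA or TTCGAA and a CCAAT box as CCAAT, each on either strand, and 1 pair of CHR and CCAAT matches overlapped in the members. Members were counted as genes, with a match in any of their entries, and 2 members, Ect2 and Tmpo, had 2 entries. Tmpo held a CHR match in only 1 of them. The shares over the table count single promoters. A CHR match was found for 30 of 38 members (78.9%), against 19.2% of the 32851 promoters in the table. CCAAT was found in 29 (76.3%), against 37.4%, and both motifs in 25 (65.8%), against 7.52%. Among members with an entry, 7 of the 8 called against the ethanol control held a CHR match, as did 23 of the 30 not called. The 5 called members with the smallest p and a CHR match are shown 5′ to 3′ on the strand of the gene, with CHR and CCAAT letters in capitals. Ckap2 lies at chr8:22185770-22186069 (minus strand), Ube2c at chr2:164769679-164769978 (plus), Cenpa at chr5:30666636-30666935 (plus), Ndc80 at chr17:71526808-71527107 (minus) and Cdca3 at chr6:124829926-124830225 (plus).
Ckap2: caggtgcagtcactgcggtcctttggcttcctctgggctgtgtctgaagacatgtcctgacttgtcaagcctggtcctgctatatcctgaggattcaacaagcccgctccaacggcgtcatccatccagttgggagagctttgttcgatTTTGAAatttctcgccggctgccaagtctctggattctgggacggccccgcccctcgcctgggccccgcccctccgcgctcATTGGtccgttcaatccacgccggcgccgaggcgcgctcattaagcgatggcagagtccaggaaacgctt
Ube2c: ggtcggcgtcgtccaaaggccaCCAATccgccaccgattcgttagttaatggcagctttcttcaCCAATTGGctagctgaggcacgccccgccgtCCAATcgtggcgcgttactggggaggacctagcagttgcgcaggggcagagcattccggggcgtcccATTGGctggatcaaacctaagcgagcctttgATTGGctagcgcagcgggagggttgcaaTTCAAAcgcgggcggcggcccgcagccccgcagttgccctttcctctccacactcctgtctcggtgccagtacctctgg
Cenpa: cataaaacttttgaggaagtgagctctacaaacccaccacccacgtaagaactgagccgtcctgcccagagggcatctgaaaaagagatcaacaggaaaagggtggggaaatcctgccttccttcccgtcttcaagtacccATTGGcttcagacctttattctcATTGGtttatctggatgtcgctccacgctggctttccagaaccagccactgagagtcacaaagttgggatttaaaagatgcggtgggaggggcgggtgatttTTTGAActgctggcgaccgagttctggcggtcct
Ndc80: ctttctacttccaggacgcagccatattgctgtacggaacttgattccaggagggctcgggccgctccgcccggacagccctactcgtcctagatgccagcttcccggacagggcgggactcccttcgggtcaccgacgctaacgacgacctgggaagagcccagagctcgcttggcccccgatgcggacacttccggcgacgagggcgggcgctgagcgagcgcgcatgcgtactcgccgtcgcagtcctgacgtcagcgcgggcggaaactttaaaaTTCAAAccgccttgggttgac
Cdca3: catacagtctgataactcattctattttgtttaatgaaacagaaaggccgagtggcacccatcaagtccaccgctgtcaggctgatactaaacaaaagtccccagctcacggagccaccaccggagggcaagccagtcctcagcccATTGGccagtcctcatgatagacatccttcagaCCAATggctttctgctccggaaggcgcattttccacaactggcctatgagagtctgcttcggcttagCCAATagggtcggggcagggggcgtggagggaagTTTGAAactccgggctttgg
The CHR letters start 101 bases before the first transcribed base in Ckap2 and 29 bases before it in Ube2c, and at bases 17, 30 and 31 of the transcript in Cenpa, Ndc80 and Cdca3. Ube2c holds 6 CCAAT matches, of which 1 forward and 1 reverse match overlap, and Ndc80 holds none in this window. A match is a description of the letters and not evidence that a factor binds there.

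Genes around the set were read from lists of related functions. The 128 further G2 and mitosis genes in 6 lists gave 20 that rose and 28 that fell against the ethanol control, with a median of -0.04. By list, 2 of 15 transcription regulators of G2 genes rose and 5 fell, 3 of 15 mitotic entry genes rose and 4 fell, and 1 of 17 genes of the anaphase-promoting complex rose and 5 fell. Of 39 other kinetochore and checkpoint genes 8 rose and 7 fell, of 24 other spindle and cytokinesis genes 6 rose and 3 fell, and of 18 condensin and cohesin genes 0 rose and 4 fell. The corresponding shares of all genes tested were 13.0% and 14.2%.

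Some of these neighbours in function moved far more than any member. Anapc5, a scaffold subunit of the anaphase-promoting complex, fell from 303 ± 13.5 to 80.2 ± 7.42 CPM (SD, n = 3), a log2 fold change of -1.92, SE 0.06, adjusted p = 2.3e-12. Cdc16, another subunit of that complex, fell from 47.8 ± 1.25 to 21.7 ± 1.29 CPM (-1.14, SE 0.07, adjusted p = 2.3e-09), and Anapc1, its largest subunit, fell by less (-0.26, adjusted p = 0.00068). Both Anapc5 and Cdc16 also fell against the 4OHT control (-2.03 and -1.77). Cdc16 lies among the 100 tested genes nearest to Ckap2 on chromosome 8, whose median was 0.24 in the 4OHT control against the ethanol control, and was itself higher there (0.63, adjusted p = 2.9e-06). Among the members, their partner Cdc20 was not called and Ube2c rose. Nsl1, a subunit of the Mis12 complex of the kinetochore, fell (-1.07, SE 0.11, adjusted p = 4.4e-06), as did its partner Pmf1 (-0.34, adjusted p = 0.0012) and Spc24, which sits in the complex of Ndc80 and Nuf2 (-0.36, adjusted p = 0.00047).

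Spindle genes outside the set rose in several cases. Kif18b, a kinesin that controls astral microtubules, rose from 92.1 ± 4.78 to 167 ± 4.07 CPM (0.86, SE 0.06, adjusted p = 1.4e-08), and Psrc1, a microtubule-associated protein, rose as well (0.64, adjusted p = 2.9e-07). Kifc1, a minus-end kinesin, rose by less (0.27, adjusted p = 0.0013). Gtse1, a microtubule-binding protein that also restrains p53, rose (0.55, adjusted p = 1.7e-06), and Ccnf, which encodes cyclin F, rose (0.35, adjusted p = 0.00018). Ccna2, the cyclin of S phase and G2, fell (-0.25, adjusted p = 0.0013), and so did Cdc25a, a phosphatase that activates cyclin-dependent kinases (-0.33, adjusted p = 0.00052). Wee1, the kinase that inhibits Cdk1, had 0.04, 95% interval -0.07 to 0.15. Among condensin and cohesin genes, Ncapd2 (-0.27, adjusted p = 0.0039), Smc3 (-0.24, adjusted p = 0.0059) and Pds5a (-0.27, adjusted p = 0.0028) fell. Ncapd2 rose against the 4OHT control (0.51, adjusted p = 7.3e-06). It lies among the 100 tested genes nearest to Cdca3 on chromosome 6, which had a median of 0.52 in that comparison.

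Regulators of the G2 programme differed from each other. Foxm1, its activator, averaged 103 ± 4.22 CPM with ethanol, 99.9 ± 2.55 CPM in the libraries labelled KO and 72.9 ± 2.21 CPM in 4OHT controls (SD, n = 3). It did not pass against the ethanol control (-0.05, 95% interval -0.16 to 0.06, with the sign turning at library totals) and rose against the 4OHT control (0.45, adjusted p = 6.1e-06). Foxm1 too is among the 100 tested genes nearest to Cdca3, with their median of 0.52 against the 4OHT control, and the part of the region in the Foxm1, Ncapd2 and Cdc16 values was not tested. Mybl2, which encodes B-Myb, had 269 ± 5.18, 229 ± 1.23 and 585 ± 31.4 CPM in the same order. Mybl2 fell against the ethanol control (-0.23, adjusted p = 0.0027) and against the 4OHT control (-1.35, adjusted p = 5.3e-12). Rbl2, which encodes the DREAM protein p130, rose from 9.32 ± 0.633 to 21.7 ± 1.65 CPM (1.23, SE 0.10, adjusted p = 1.6e-07), while its partners E2f4 (-0.36, adjusted p = 0.00014) and Tfdp1 (-0.32, adjusted p = 0.00063) fell. Of 8 p53 targets that restrain G2, 6 rose and 0 fell against the ethanol control, where 13.0% and 14.2% of all genes did, with a median of 0.76. Cdkn1a, the Cdk inhibitor p21, rose from 28.7 ± 2.38 to 53.9 ± 4.73 CPM (0.91, SE 0.09, adjusted p = 1.1e-06). Plk2 (1.90, adjusted p = 9.5e-07) and Btg2 (1.23, adjusted p = 2.9e-06) rose further.

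**Figure D4:**
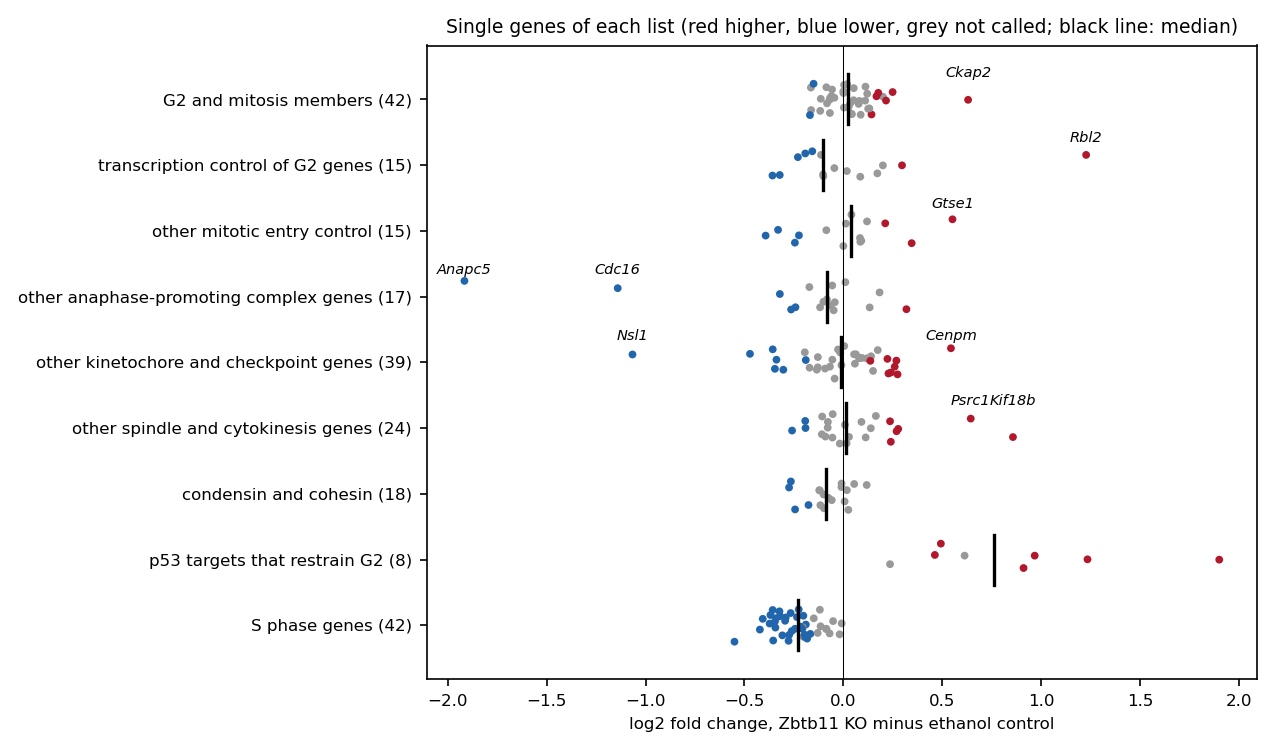
Log2 fold change of every gene of the members, the 6 lists of other G2 and mitosis genes, the p53 targets and the S phase genes, libraries labelled KO minus ethanol control. Each point is a gene, red if called higher, blue if called lower and grey otherwise, and the black line is the list's median. The members' median is 0.03, that of the S phase genes -0.23 and that of the p53 targets 0.76.

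S phase genes, which act just before G2, gave other counts than the members. Of 42 S phase genes, 0 rose and 30 fell against the ethanol control, where 13.0% and 14.2% of all genes did. Their median was -0.23, and the 42 members had 6, 2 and 0.03. Their summed level was 7115 to 7602 CPM in the ethanol control and 5925 to 6367 CPM in the libraries labelled KO, which did not overlap. Uhrf1, which guides maintenance of DNA methylation (-0.42, adjusted p = 0.00012), Ung, a uracil glycosylase (-0.41, adjusted p = 0.00021) and Pola1, the catalytic subunit of DNA polymerase alpha (-0.36, adjusted p = 5.4e-05), were the 3 with the smallest p. Against the 4OHT control, 1 S phase gene rose and 22 fell, with a median of -0.16, where 19.1% and 19.8% of all genes rose and fell. The difference between the lists was not tested.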

How the data were processed

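RNA was sequenced in 9 libraries of mouse ES cells, 3 in each of 3 groups taken from the sample titles and characteristics. Per the labels' protocols, ribosomal RNA was depleted and directional libraries were prepared. The authors deposited unnormalised counts per gene, with 1 file for each library. Named in the submitters' processing notes, without roles, are STAR, HTSeq, cutadapt, edgeR, Bowtie 1.1.2, DiffBind, MACS2 and the build mm9. Whether HTSeq used strand is not given in the sources used, and opposite-strand genes that overlap may have shared reads.

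Each file has 37310 gene rows, of which 32620 matched a symbol. Totals and tests leave out 5 rows without a gene; the share of reads without a feature was 26.4% to 33.8%. Counts were tested with edgeR 4.0.16 (limma 3.58.1, R 4.3.3; robust quasi-likelihood F test, TMM scaling, filterByExpr by group) in 1 fit of 9 libraries with 6 residual degrees of freedom. P-values were adjusted by the Benjamini-Hochberg method over all 16224 genes tested, and calls are at an adjusted p under 0.05. Standard errors were derived from the F statistic, and 95% intervals from them. CPM are scaled by TMM, and CPM per kilobase use the union of exons in GENCODE M21. Gene order comes from RefSeq on GRCm38.p6. Near-identical copies are transcripts that match a member at 95% identity or more over at least 200 bases. The fit was tested on simulated data before use. The simulated libraries were drawn independently, so scatter shared by libraries with the same replicate number was not part of that test.

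The members and lists were chosen with earlier results of these data known, so lists are described by counts and medians without a test. All 42 members could be named. Values in every library are given for members called in a comparison of the group labelled KO and for the highest and lowest of each role per length. They are also given for Ccnb1 and Mki67, which meet neither condition. From each related list, the 3 genes with the smallest p against the ethanol control are named, with Foxm1, Mybl2, Ccna2, Wee1 and Cdkn1a.

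Replicate numbers are shared by the groups. Deviations from the group mean correlated at 0.11 to 0.31 in all 9 pairs with the same number, so same-numbered libraries shared part of their scatter. Correlations were negative in all pairs with different numbers. That is not separate support, because deviations cancel within a group. The labels do not say what a number stands for. The main calls and the runs without 1 library come from fits that leave this pairing out. A member not called in the main fit can therefore pass with the replicate block. Alternatives were this replicate block, the 2 groups compared alone, RLE factors, library totals, DESeq2 1.42.0, no filter on low counts, at least 1 CPM in 3 libraries, and leaving out each library in turn.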

Additional observations from a re-analysis of the deposited data

Results flagged for a closer look

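Reads that the counting assigned to no gene lie outside the main measurement, and they made up a larger share of the files in the group labelled KO than in either control. The mean share was 33.3% ± 0.531 (SD, n = 3) in the libraries labelled KO, 27.7% ± 1.18 in the ethanol control and 27.1% ± 0.414 in the 4OHT control. The lowest library labelled KO, at 32.7%, lay above the highest control library, at 28.7%. Its part in the results for the G2 and mitosis genes was not tested.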

How the results depend on the processing

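Of the member calls, 2 of 8 against the ethanol control (Ckap2 and Ube2c), 11 of 20 against the 4OHT control and 5 of 9 between the controls held under all 16 alternatives, and none of these 37 calls reversed. The calls that ended under some other alternative all held with the replicate block, a fit that also called more of all genes. Against the ethanol control, the counts of members that rose and fell moved from 6 and 2 to 12 and 6 with the replicate block, which pairs libraries by number, and to 13 and 0 with library totals. Without the low count filter 3 rose, with the 2 groups alone 1 fell, and with DESeq2 4 fell. Leaving out 1 library gave 3 to 6 rises and 0 to 3 falls, with medians of 0.0042 to 0.032, and library totals moved the median to 0.096. Against the 4OHT control, library totals gave 13 rises, 5 falls and a median of 0.067, and leaving out 1 library gave 6 to 8 rises, 7 to 12 falls and medians of -0.033 to -0.0041. Between the controls, the block gave 14 higher and 5 lower, library totals and the 1 CPM filter each gave 4 lower, and leaving out 1 library gave 4 to 7 higher, 2 to 3 lower and medians of 0.044 to 0.069. Fewer libraries leave fewer degrees of freedom. Shares over all genes are given only for the main fit, the replicate block and library totals. The counts from the other alternatives therefore cannot be read as results about the members. Signs turned at values near 0. With library totals, the log2 fold changes against the ethanol control were 0.0014 for Cdk1, 0.0028 for Top2a and 0.024 for Foxm1, and that of Aurka against the 4OHT control was 0.062. Leaving out 1 library gave -0.041 to 0.047 for Cdc20 against the ethanol control, and -0.039 to 0.071 for Ung against the 4OHT control. The cause of these changes was not tested beyond the construction of each alternative. Member counts were 382 reads or more in every library, and counting error is part of the fitted spread.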

Other observations

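The 4 Y-linked genes Kdm5d, Uty, Ddx3y and Eif2s3y had 0 to 4 summed counts per library in the ethanol control, 0 in the libraries labelled KO and 3385 to 4346 in the 4OHT control. These genes were chosen after their values were seen. They separate the floxed line from the line of the 4OHT control, as the genes of chromosomes 6 and 8 around Cdca3, Ckap2 and Hmgb2 do, and the relation of these differences to the member results was not tested.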
